A study of Mus musculus with 10 samples.

Results

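The Fc receptor genes of mouse microglia were examined: *Fcer1g*, *Fcgr1*, *Fcgr2b*, *Fcgr3*, *Fcgr4*, *Fcgrt* and *Fcrls*. They were taken by gene symbol, 7 of the 18281 symbols listed across 10 single-cell count tables, and each of the 7 was listed in every table and passed the filter on low counts. The rule goes by symbol and uses no measured value, but the family was picked with earlier results of these libraries known.

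Fc receptors are surface proteins that bind the constant part of antibodies and so couple immunoglobulin to phagocytosis, cytokine release and antigen uptake. The activating IgG receptors FcγRI, FcγRIII and FcγRIV, encoded by *Fcgr1*, *Fcgr3* and *Fcgr4*, have no signalling motif of their own in the mouse and signal through the common γ chain, the product of *Fcer1g*, whose immunoreceptor tyrosine-based activation motif (ITAM) recruits the kinase Syk. FcγRIIB, encoded by *Fcgr2b*, is the inhibitory IgG receptor and carries an inhibitory motif (ITIM) that recruits the phosphatase SHIP1. *Fcgrt* encodes the heavy chain of the neonatal receptor FcRn, which pairs with β2-microglobulin and returns IgG and albumin from endosomes to the cell surface. *Fcrls* encodes an Fc receptor-like scavenger protein that is widely used as a marker of microglia and is not known to bind IgG.

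The study compared microglia kept in cultured brain slices with microglia taken straight from the brain and with microglia grown in a dish. All mice were C57BL/6, and live cells were sorted by flow cytometry as CD11b high and CD45 intermediate after an Fc receptor blocking antibody had been added. Untreated adult brain tissue gave the adult group and mixed glial cultures kept for 3 weeks gave the in vitro group. Organotypic brain slices gave the slice groups, taken after 1 day, 1 week or 3 weeks in culture. Slices were cut from neonatal pups and pooled where needed, and the mixed glial cultures came from neonatal cortex. The adult group thus differed from all 4 cultured groups in the age of the donor as well as in culture, and the effects of age and culture cannot be told apart. Each of the 5 groups had 2 libraries, described in the labels as biological replicates. Replicate 1 of the adult group and replicate 1 of the 3 week slices carried one study label, and the other 8 libraries carried another.

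Of 19637 barcodes, 19059 cells passed the filters on mitochondrial share, detected genes and molecule count. The 1 week slices were the thinnest group, with 148 and 61 cells, and total counts of unique molecular identifiers (UMIs) ran from 385373 in replicate 2 of the 1 week slices to 39689540 in replicate 2 of the in vitro group. The study counted far fewer than 148 cells as microglia in either 1 week sample, so replicate 1 held many cells not counted there. All 13 microglia markers were detected in every library. Their summed level was 48483 to 49767 CPM, the UMIs of a gene per 1000000 UMIs of the library, in the adult group, 14930 to 17071 in vitro, 8524 to 9731 at 1 day, 16421 to 20632 at 1 week and 22713 to 30794 at 3 weeks.

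Both 1 day libraries and replicate 1 of the 1 week slices stood apart, because they held cells with over 2% of their UMIs from 7 neutrophil genes. These neutrophil-rich cells were 68 of 518 cells and 110 of 1014 cells at 1 day and 24 of 148 cells in replicate 1 at 1 week, against 1 of 61 cells in replicate 2 at 1 week and 0 cells in the other 6 libraries. The member comparisons were also computed without those cells. The summed neutrophil list was 7772 to 19185 CPM at 1 day, 1030 to 30663 at 1 week, 177 to 211 in the adult group, 21.3 to 29.8 in vitro and 59.7 to 80.6 at 3 weeks, and the defining neutrophil gene *Retnlg* was at 0 in all libraries of the last 3 groups. The 7 monocyte markers summed to 186 to 389 CPM at 1 day, 862 and 0 CPM in the 2 libraries at 1 week, and at most 8.31 CPM elsewhere. The 7 markers of border macrophages, the macrophages of meninges and vessels, summed to 8.24 to 13.9 CPM in the adult group, 128 to 171 at 3 weeks, 320 to 487 at 1 day and 1 week, and 4322 to 4508 in vitro. Without equal depth per cell, 3 or more of these markers were found in 87.6% and 88.0% of in vitro cells. In every other library the share was at most 12.2%. The 4 erythrocyte genes summed to 1692 CPM in adult replicate 1 and 3096 CPM in 1 day replicate 1, against 0 and 0.734 CPM in the other libraries of those groups and at most 0.895 CPM elsewhere, and their part in the results was not tested. Each comparison was also made without each library.

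In the mouse genome (GRCm38, the assembly behind the mm10 build used for mapping), *Fcgr2b* (chr1:170958617-170976547), *Fcgr4* (chr1:171018920-171029761), *Fcgr3* (chr1:171051174-171064935) and *Fcer1g* (chr1:171229572-171234365) lie within 276 kb of one another. *Fcgr4* is on the plus strand and the other 3 are on the minus strand. *Fcgr1* (chr3:96282909-96293969) and *Fcrls* (chr3:87250758-87263738) are on another chromosome, and *Fcgrt* (chr7:45092990-45103851) on a further one, all on the minus strand. Members of the low-affinity family share sequence, so a read could have been assigned to the wrong copy or dropped, *Fcgr2b* and *Fcgrt* each overlap a gene model on the other strand, and *Fcgr3* and *Fcgr4* each overlap one on their own strand.

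The RefSeq start regions of the members, 250 bases before to 50 after the start in GRCm38.p6, were searched on both strands for GAGGAAG, letters bound by the myeloid factor PU.1, for the interferon-γ activated site TTCNNNGAA and for the interferon-stimulated element, GAAA repeated after any 2 bases. The first was present in *Fcgr1*, *Fcgr3*, *Fcgr4* and *Fcrls*, 4 of the 7 members, and, counted over genes in the same way, in 15.4% of 27025 mouse genes with a promoter of this length. The second was present in *Fcgr1* (9.55% of these genes) and the third in *Fcgr4* (3.99% of these genes), whereas *Fcer1g*, *Fcgr2b* and *Fcgrt* held none of these letters in this window. The 4 regions with a match are shown because, with depth scaling, *Fcgr4* went the other way from *Fcgr1*, *Fcgr3* and *Fcrls* in all 4 comparisons with the adult brain. Capitals mark the matched letters, and all are written 5′ to 3′ along the strand of the gene.
Fcgr1 promoter, chr3:96293920-96294219, minus strand: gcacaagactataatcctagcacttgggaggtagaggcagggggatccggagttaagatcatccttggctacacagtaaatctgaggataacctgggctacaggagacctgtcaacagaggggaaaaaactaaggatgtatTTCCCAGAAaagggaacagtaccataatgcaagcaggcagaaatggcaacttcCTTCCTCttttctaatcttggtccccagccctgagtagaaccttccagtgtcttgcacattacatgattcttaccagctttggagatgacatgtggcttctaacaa
Fcgr3 promoter, first of 2 RefSeq starts, chr1:171059354-171059653, minus strand: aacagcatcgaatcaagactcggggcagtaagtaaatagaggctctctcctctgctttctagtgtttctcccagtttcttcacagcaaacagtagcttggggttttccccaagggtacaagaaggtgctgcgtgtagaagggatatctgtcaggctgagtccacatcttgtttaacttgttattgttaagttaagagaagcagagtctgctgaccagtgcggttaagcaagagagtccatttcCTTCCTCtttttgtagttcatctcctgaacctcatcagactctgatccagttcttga
Fcgr4 promoter, chr1:171018676-171018975, plus strand: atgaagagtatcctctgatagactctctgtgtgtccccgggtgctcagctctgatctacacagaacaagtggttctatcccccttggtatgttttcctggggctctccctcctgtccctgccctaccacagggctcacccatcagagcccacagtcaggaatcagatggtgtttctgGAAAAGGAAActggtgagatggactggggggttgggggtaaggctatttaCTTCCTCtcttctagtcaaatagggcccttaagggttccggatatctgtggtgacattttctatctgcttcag
Fcrls promoter, chr3:87263475-87263774, minus strand: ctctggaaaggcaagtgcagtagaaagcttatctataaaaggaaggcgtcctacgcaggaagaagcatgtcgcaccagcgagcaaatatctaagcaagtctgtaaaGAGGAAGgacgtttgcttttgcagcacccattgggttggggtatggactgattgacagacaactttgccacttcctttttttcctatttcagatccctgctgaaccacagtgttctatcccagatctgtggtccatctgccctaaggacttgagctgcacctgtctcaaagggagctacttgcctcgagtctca

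Counted from the start, the match to the reverse complement of GAGGAAG lay at bases -56 to -50 in *Fcgr1*, -7 to -1 in *Fcgr3* and -23 to -17 in *Fcgr4*. In *Fcrls* the match lay further upstream, at -144 to -138, and on the strand of the gene. The interferon-γ activated letters of *Fcgr1* (TTCCCAGAA) lay at -109 to -101 and the interferon-stimulated letters of *Fcgr4* (GAAAAGGAAA) at -73 to -64. A match of letters does not show that a factor was bound.

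For each gene the UMIs of all cells of a library were summed and scaled to CPM with edgeR's TMM factors, and groups were compared with edgeR's quasi-likelihood test, adjusted by Benjamini-Hochberg over 12155 genes. A gene is said to have risen or fallen at an adjusted p under 0.05 and a fold change over 1.5. In summed counts, fewer cells of a type and less RNA per cell cannot be told apart. The 4 comparisons with the adult group share its 2 libraries. Scaling to depth matters here, since cultured cells held more UMIs each. On unscaled UMIs per cell the median of all genes exceeded the adult group by 2.04 (in vitro), 1.49 (1 day), 1.10 (1 week) and 1.05 (3 weeks) on the log2 scale, and the falls of *Fcgr1*, *Fcgr2b*, *Fcgr3* and *Fcrls* described here turn into gains that stay under that median.

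**Figure D1:**
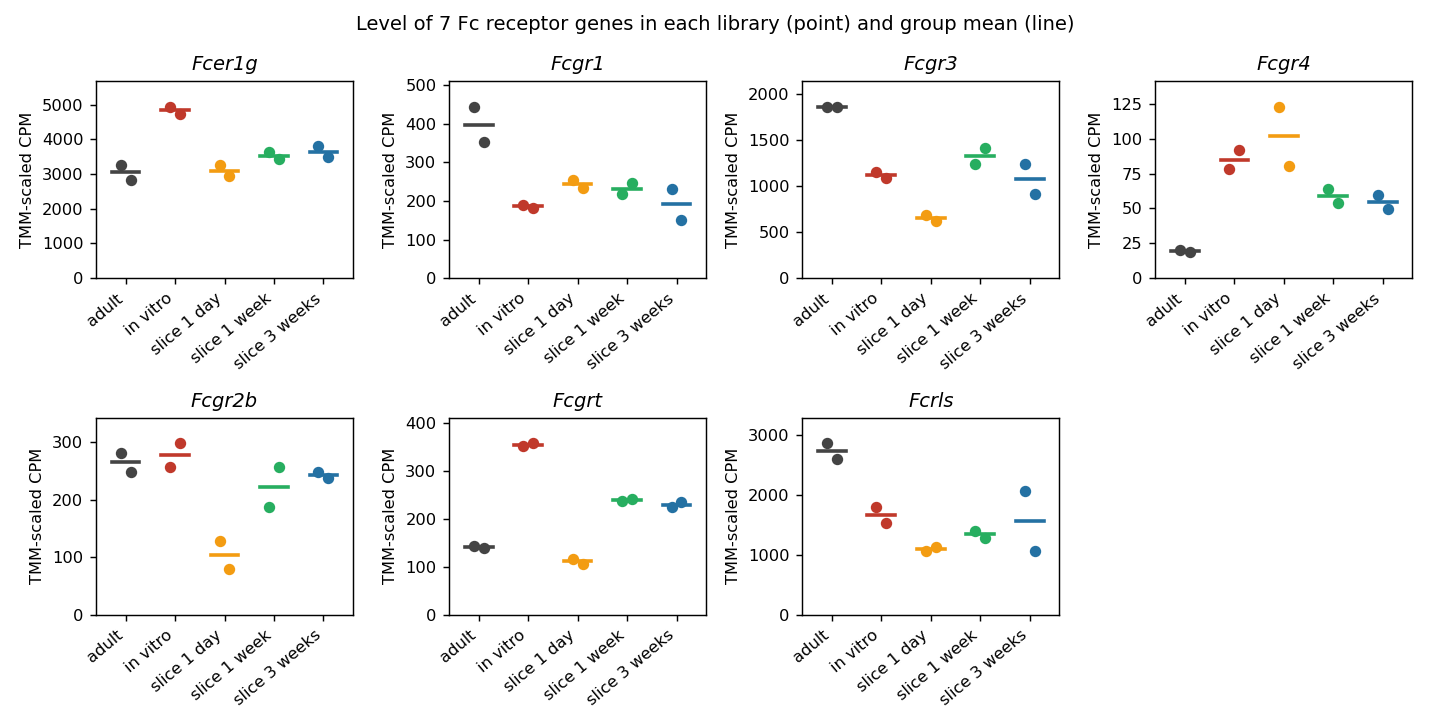
Level of each Fc receptor gene in the 10 libraries, in TMM-scaled CPM on a linear axis from 0, with a point for each library and a line for the mean of the 2 libraries of a group. With this scaling the adult libraries are the highest for Fcgr1, Fcgr3 and Fcrls and the lowest for Fcgr4.

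*Fcgr4* was the member with the largest change from the adult brain, and it rose in every cultured group. FcγRIV binds IgG2a and IgG2b and is known from monocytes, macrophages and neutrophils. Its level was 20.4 and 18.5 CPM in the adult libraries, 78.0 and 91.9 in vitro, 123 and 80.5 after 1 day, 64.2 and 53.7 after 1 week, and 59.5 and 49.6 after 3 weeks. Every cultured library lay above both adult libraries. Against the adult group it was 4.35-fold higher in vitro (log2 2.12 ± 0.21 SE, adjusted p = 1.38e-05), 5.17-fold higher at 1 day (2.37 ± 0.21, adjusted p = 1.20e-05), 3.08-fold higher at 1 week (1.62 ± 0.25, adjusted p = 0.000928) and 2.78-fold higher at 3 weeks (1.48 ± 0.21, adjusted p = 0.000366). The depth behind the adult value is small, 279 and 144 UMIs, and replicate 2 at 1 week held 21. Within the slices *Fcgr4* fell from 1 day to 3 weeks (log2 -0.89 ± 0.20, adjusted p = 0.00831), and at 1 week the difference from 1 day was -0.75 ± 0.24 (adjusted p = 0.0751). The fall to 3 weeks did not pass without 1 day replicate 1 (-0.57, adjusted p = 0.0693) or without 3 week replicate 2 (-0.75, adjusted p = 0.0543), and the 1 week difference passed without 1 day replicate 2 (-1.04, adjusted p = 0.0477). In vitro cells had 1.56-fold more than 3 week slices (0.64 ± 0.20, adjusted p = 0.0260), a call lost without in vitro replicate 2 (0.60, adjusted p = 0.123) or 3 week replicate 2 (0.58, adjusted p = 0.0932).

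*Fcgr3* fell in vitro and in the slices at 1 day and 3 weeks. FcγRIII is a low-affinity receptor for IgG complexes. The adult libraries stood at 1863 and 1859 CPM, in vitro at 1150 and 1085, 1 day at 690 and 626, 1 week at 1243 and 1412, and 3 weeks at 1245 and 910. Both adult values were above every other library, and both 1 day values were below every other library. The difference from the adult group was -0.74 ± 0.17 in vitro (adjusted p = 0.00373), -1.50 ± 0.17 at 1 day (adjusted p = 5.45e-05), -0.49 ± 0.17 at 1 week (adjusted p = 0.0526) and -0.79 ± 0.17 at 3 weeks (adjusted p = 0.00433) on the log2 scale. At 1 day the level was 2.83-fold below the adult group, and from there it rose 2.02-fold to 1 week (1.01 ± 0.17, adjusted p = 0.00635) and 1.64-fold to 3 weeks (0.71 ± 0.17, adjusted p = 0.0110). Several of these calls rested on single libraries. The in vitro fall was -0.66 without in vitro replicate 1 (adjusted p = 0.0531) and -0.57 without in vitro replicate 2 (adjusted p = 0.0895). The 3 week fall was -0.52 without 3 week replicate 2 (adjusted p = 0.0287, under the fold threshold). The rise to 3 weeks was 0.65 without 1 day replicate 2 (adjusted p = 0.0985) and 0.47 without 3 week replicate 1 (adjusted p = 0.0290), and the rise to 1 week was 0.94 without 1 day replicate 2 (adjusted p = 0.0727) and 0.84 without 1 week replicate 2 (adjusted p = 0.0523).

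*Fcgr1* fell in all 4 cultured groups. FcγRI is the high-affinity receptor, able to hold monomeric IgG. It measured 444 and 351 CPM in the adult brain, 191 and 182 in vitro, 255 and 234 after 1 day, 217 and 246 after 1 week, and 231 and 150 after 3 weeks. No cultured library reached the lower adult library. The fall was 2.13-fold in vitro (log2 -1.09 ± 0.21, adjusted p = 0.00106), 1.63-fold at 1 day (-0.70 ± 0.20, adjusted p = 0.0140), 1.73-fold at 1 week (-0.79 ± 0.21, adjusted p = 0.0186) and 2.09-fold at 3 weeks (-1.06 ± 0.21, adjusted p = 0.00235). The 1 day fall did not pass without adult replicate 1 (-0.48, adjusted p = 0.134) or 1 day replicate 2 (-0.58, adjusted p = 0.118), nor the 1 week fall without adult replicate 1 (-0.57, adjusted p = 0.130) or 1 week replicate 1 (-0.67, adjusted p = 0.196). Among the slice times and between 3 week slices and in vitro cells, differences ran from -0.36 to -0.03 and none passed. Without 3 week replicate 1 the difference of 3 weeks from 1 day was -0.70 (adjusted p = 0.0158).

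*Fcer1g*, whose γ chain the activating receptors need at the surface, fell in none of the comparisons with the adult group. It was at 3264 and 2825 CPM in the adult group, 4937 and 4740 in vitro, 3251 and 2930 after 1 day, 3627 and 3431 after 1 week, and 3816 and 3477 after 3 weeks. Both in vitro libraries were above all 8 others. The in vitro rise over the adult brain was 1.59-fold (log2 0.67 ± 0.14, adjusted p = 0.00242), and it dropped to 0.56 without adult replicate 2 (adjusted p = 0.0236), under the fold threshold. The slices differed from the adult group by 0.02 ± 0.14 at 1 day (adjusted p = 0.915), 0.21 ± 0.14 at 1 week (adjusted p = 0.292) and 0.26 ± 0.14 at 3 weeks (adjusted p = 0.172). In vitro cells exceeded 3 week slices by 0.41 ± 0.14 (adjusted p = 0.0442), a fold of 1.33 and so under the fold threshold. For each UMI of *Fcgr1*, *Fcgr3* and *Fcgr4* together there were 1.40 and 1.27 UMIs of *Fcer1g* in the adult libraries, 3.48 and 3.49 in vitro, 3.04 and 3.11 after 1 day, 2.38 and 2.00 after 1 week, and 2.48 and 3.13 after 3 weeks. The adult libraries had the lowest values of this quotient, which does not depend on library scaling.

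The inhibitory receptor *Fcgr2b* fell at 1 day and did not pass in the other 3 comparisons with the adult group. Its level was 281 and 248 CPM in the adult group, 257 and 297 in vitro, 129 and 80.2 after 1 day, 187 and 256 after 1 week, and 248 and 238 after 3 weeks. The 2 libraries at 1 day were the lowest of the 10. The 1 day group was 2.55-fold below the adult group (log2 -1.35 ± 0.23, adjusted p = 0.000592), whereas in vitro (0.07 ± 0.22, adjusted p = 0.822), 1 week (-0.28 ± 0.23, adjusted p = 0.406) and 3 weeks (-0.12 ± 0.22, adjusted p = 0.692) did not pass. From 1 day it rose 2.10-fold to 1 week (1.07 ± 0.24, adjusted p = 0.0187) and 2.34-fold to 3 weeks (1.23 ± 0.23, adjusted p = 0.00307). The rise to 1 week was 0.76 without 1 day replicate 2 (adjusted p = 0.125), 1.28 without 1 week replicate 1 (adjusted p = 0.0624) and 0.76 without 1 week replicate 2 (adjusted p = 0.130).

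*Fcgrt*, the FcRn heavy chain, followed another course. It stood at 143 and 139 CPM in the adult brain, 352 and 357 in vitro, 116 and 106 after 1 day, 237 and 241 after 1 week, and 224 and 236 after 3 weeks. The SD over the 2 libraries of a group ran from 2.37 to 8.43 CPM, and the libraries of the 5 groups did not overlap. Against the adult group it rose 2.51-fold in vitro (log2 1.33 ± 0.13, adjusted p = 1.21e-05), 1.69-fold at 1 week (0.76 ± 0.13, adjusted p = 0.00197) and 1.63-fold at 3 weeks (0.70 ± 0.13, adjusted p = 0.00162). At 1 day it was lower than in the adult group, with a difference of -0.35 ± 0.13 (adjusted p = 0.0409) that is under the fold threshold and reverses on unscaled UMIs per cell. From 1 day it rose 2.15-fold to 1 week (1.10 ± 0.13, adjusted p = 0.00256) and 2.07-fold to 3 weeks (1.05 ± 0.13, adjusted p = 0.000426). In vitro cells exceeded 3 week slices 1.54-fold (0.62 ± 0.13, adjusted p = 0.00340). Each of these calls held with any 1 library left out. With the library size alone as the scale, the rises were 0.55 at 1 week and 0.50 at 3 weeks and did not pass the fold threshold, nor did the difference of in vitro cells from 3 week slices (0.52). With cells thinned to 1500 UMIs each, the rise to 1 week was lost against the adult group (0.42, adjusted p = 0.268) and against 1 day (0.60, adjusted p = 0.249). Without cells that held 3 or more neutrophil, lymphocyte or monocyte genes, 4 of the 6 calls were lost, at 1 week (0.46, adjusted p = 0.346) and 3 weeks (0.62, adjusted p = 0.0690) against the adult group, from 1 day to 1 week (1.03, adjusted p = 0.119) and in vitro against 3 weeks (0.60, adjusted p = 0.0810). The border macrophage list was also highest in vitro, as given above, and its part in the in vitro levels of *Fcgrt*, *Fcer1g* and *Fcgr4* was not tested.

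*Fcrls* fell in all 4 cultured groups, with a wide gap between the replicates at 3 weeks. It measured 2865 and 2604 CPM in the adult group, 1811 and 1535 in vitro, 1061 and 1133 after 1 day, 1406 and 1290 after 1 week, and 2070 and 1060 after 3 weeks. The adult libraries were above all others, and the 3 week libraries spanned the whole range of the cultured ones. The fall was 1.63-fold in vitro (log2 -0.71 ± 0.26, adjusted p = 0.0357), 2.49-fold at 1 day (-1.32 ± 0.26, adjusted p = 0.00161), 2.03-fold at 1 week (-1.02 ± 0.26, adjusted p = 0.0135) and 1.75-fold at 3 weeks (-0.81 ± 0.26, adjusted p = 0.0289). The 1 day fall kept its call in all 21 alternatives that scale for depth, but the 1 week fall kept it in 18, the in vitro fall in 8 and the 3 week fall in 12. At 1 week it did not pass without adult replicate 1 (-0.91, adjusted p = 0.0680), 1 week replicate 1 (-1.06, adjusted p = 0.103) or 1 week replicate 2 (-0.996, adjusted p = 0.0752). Without 3 week replicate 2 the 3 week fall was -0.34 (adjusted p = 0.111) and without 3 week replicate 1 it was -1.37. With all 10 libraries, no difference of *Fcrls* among the slice times or between 3 week slices and in vitro cells passed. Without 3 week replicate 2 it was higher at 3 weeks than at 1 day (0.93, adjusted p = 0.00281) and than at 1 week (0.68, adjusted p = 0.0389), and without 3 week replicate 1 it was higher in vitro than at 3 weeks (0.66, adjusted p = 0.00836).

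The 3 week slices and the adult group had 1 library under each study label, which allowed the same comparison within a label, 1 library against 1 and without a test. Under the first and the second label, the log2 difference of 3 weeks from adult was 1.54 and 1.42 for *Fcgr4*, 0.65 and 0.76 for *Fcgrt*, and -0.94 and -1.22 for *Fcgr1*. For *Fcgr3* it was -0.58 and -1.03, and for *Fcrls* -0.47 and -1.30. Directions held within both labels for these 5 genes, and the size of the fall differed most for *Fcrls*. With study label as a term in the fit, the falls of *Fcgr1* at 1 day and 1 week and of *Fcrls* in vitro no longer passed (-0.45, -0.54 and -0.45 for *Fcgr1* at 1 day, *Fcgr1* at 1 week and *Fcrls*), and the fall of *Fcgr1* from 1 day to 3 weeks did (-0.63, adjusted p = 0.0160).

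**Figure D2:**
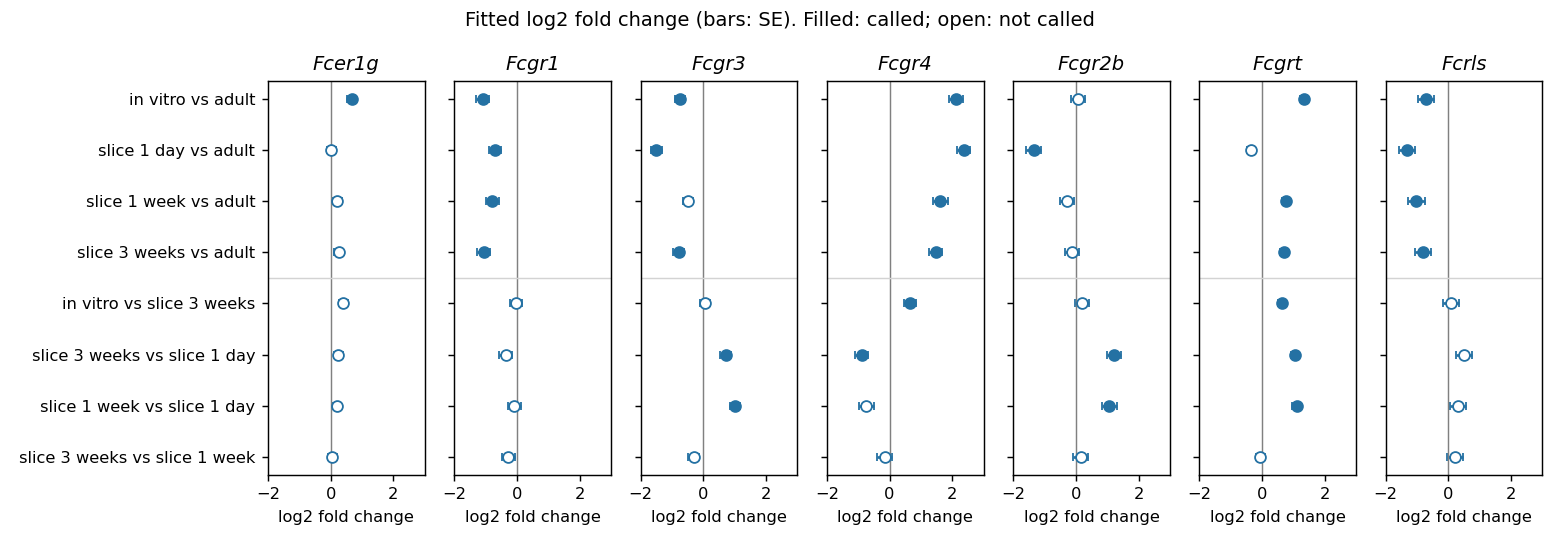
Log2 fold change of each Fc receptor gene in the 8 comparisons, scaled for depth, with bars of 1 standard error from edgeR's quasi-likelihood fit and filled points for values that passed both thresholds. Against the adult group, in the upper 4 lines, Fcgr4 is above 0 in all 4 comparisons while Fcgr1, Fcgr3 and Fcrls are below 0, a direction that flips on unscaled UMIs per cell, and Fcgrt is below 0 at 1 day and above 0 in the other 3. The 1 day direction of Fcgrt flips on unscaled UMIs per cell too.

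Counted over the family with depth scaling, 6 of the 7 members changed in vitro against the adult brain, 3 up and 3 down, where 50.9% of all genes tested were called (22.4% higher and 28.5% lower), and on unscaled UMIs per cell each fall against the adult group counted here reversed. At 1 day 5 members changed, *Fcgr4* up and 4 down, beside 50.3% of all genes (24.9% higher, 25.4% lower). At 1 week 4 members changed, 2 up and 2 down, beside 28.6% (15% higher, 13.6% lower), and at 3 weeks 5 changed, 2 up and 3 down, beside 35.5% (18% higher, 17.5% lower). In the comparison of in vitro cells with 3 week slices, *Fcgr4* and *Fcgrt* were higher in vitro, 2 of 7 members beside 33.3% of all genes (13.3% higher, 20% lower). From 1 day to 3 weeks 3 members rose and 1 fell, beside 26.8% of all genes (13.9% higher, 12.8% lower), and from 1 day to 1 week 3 rose, beside 10.2% (4.92% higher, 5.26% lower). Between 1 week and 3 weeks 0 members passed edgeR's test, beside 5.73% of all genes called (2.24% higher, 3.5% lower). DESeq2 called 0 members there, beside 960 of 12155 genes. An unadjusted edgeR p under 0.05 was found for 0 members, beside 2573 of 12155 genes. No test was made of a member count against these shares. Single libraries moved some counts: at 1 week the count was 2 without adult replicate 1 or without 1 week replicate 1, and at 3 weeks it was 3 without 3 week replicate 2. Against in vitro cells it was 1 without in vitro replicate 2 or without 3 week replicate 2, from 1 day to 1 week it was 1 without 1 week replicate 2, and from 1 week to 3 weeks it was 1 without 3 week replicate 2, which was *Fcrls* (0.68, adjusted p = 0.0389).

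Ordered by mean level, neighbouring groups often could not be separated. *Fcer1g* ran from in vitro through 3 weeks, 1 week and 1 day to adult, and no neighbouring pair passed both thresholds. *Fcgr1* ran from adult through 1 day, 1 week and 3 weeks to in vitro, and only the first step, adult to 1 day, passed. *Fcgr2b* ran from in vitro through adult, 3 weeks and 1 week to 1 day, and only the last step passed. *Fcgr3* ran from adult through 1 week, in vitro and 3 weeks to 1 day, and the last step passed. *Fcgr4* ran from 1 day through in vitro, 1 week and 3 weeks to adult, with the last step passing and with the 1 day and in vitro ranges overlapping. *Fcgrt* ran from in vitro through 1 week, 3 weeks and adult to 1 day, and the step from 3 weeks to adult passed. *Fcrls* ran from adult through in vitro, 3 weeks and 1 week to 1 day, and the step from adult to in vitro passed. Neighbouring steps between in vitro and 1 week or 1 day were not among the 8 comparisons.

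The makeup of the 4 IgG receptors was compared within libraries as the share of each gene in their summed UMIs. Capture can differ between genes, so a share is read across libraries and not against another gene. *Fcgr4* made up 0.783% and 0.749% of these UMIs in the adult brain, 10.3% and 7.88% after 1 day, 4.66% and 5.55% in vitro, 3.75% and 2.73% after 1 week, and 3.33% and 3.68% after 3 weeks. *Fcgr3* made up 71.4% and 75.1% in the adult brain and 57.7% and 61.3% after 1 day, the lowest values of the 10 libraries. There were 91.2 and 100 UMIs of *Fcgr3* for each UMI of *Fcgr4* in the adult libraries and 5.61 and 7.78 after 1 day. The share of *Fcgr1* was largest at 1 day, at 21.3% and 22.9%, although its level had fallen.

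**Figure D3:**
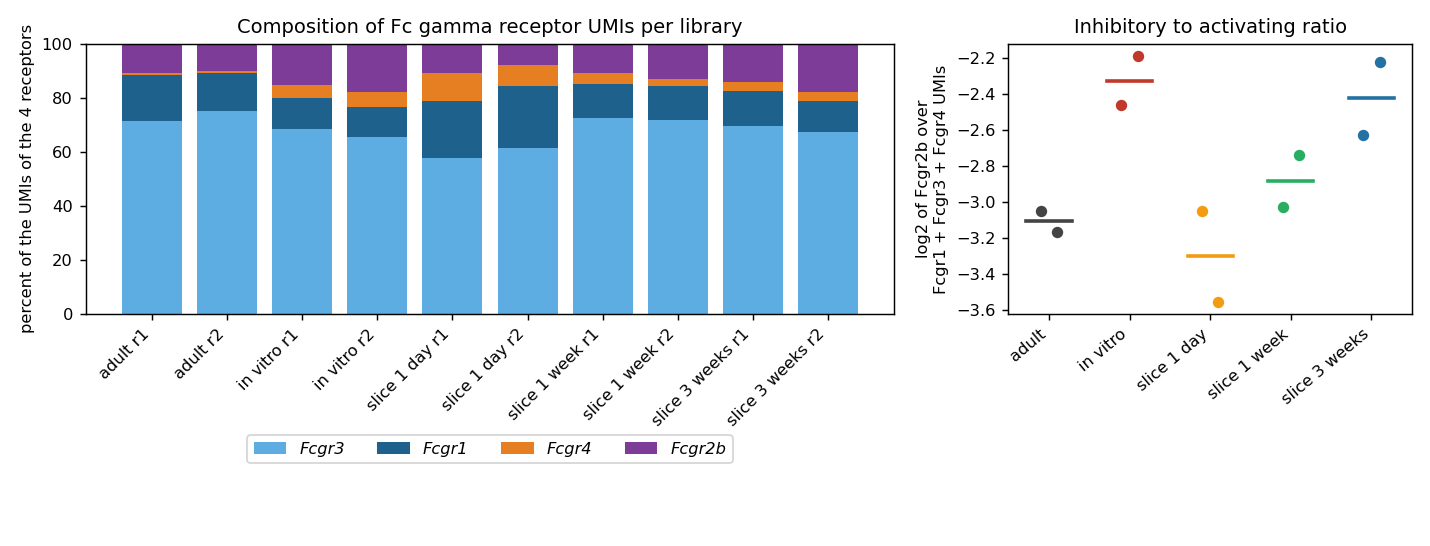
Share of Fcgr1, Fcgr2b, Fcgr3 and Fcgr4 in their summed UMIs for each of the 10 libraries, in percent, as stacked bars that start at 0, and beside them the log2 ratio of Fcgr2b to the other 3 with a line at each group mean. Fcgr4 is a sliver of the adult bars, under 1%, and reaches 7.88% and 10.3% in the 1 day bars.

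The log2 ratio of the inhibitory *Fcgr2b* to the summed activating receptors was -3.11 ± 0.08 (SD, n = 2) in the adult group, -2.33 ± 0.19 in vitro, -3.30 ± 0.35 at 1 day, -2.89 ± 0.20 at 1 week and -2.43 ± 0.29 at 3 weeks. The in vitro and 3 week libraries thus had more *Fcgr2b* for each activating receptor UMI than the adult libraries, while the 1 day and adult means differed by less than the SD of the 1 day libraries. The ratio is given as a description with no test, and an exact two-sided permutation test of 2 libraries against 2 cannot go below p = 0.33. All 7 members together took 0.528% to 0.979% of the UMIs of a library.

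Across single cells *Fcer1g* was found in nearly every cell of all libraries, and the shares of the other members varied with the group. To compare groups of unequal depth, each cell was thinned to 1500 UMIs, which left out 278 and 856 shallower adult cells and at most 7 cells of any other library. *Fcer1g* was detected in 96.1% to 99.6% of thinned cells in all libraries. *Fcgr3* was detected in 94.6% and 94.9% of adult cells, 76.7% and 73.1% in vitro, 59.9% and 57.5% after 1 day, 75.9% and 83.9% after 1 week, and 80.1% and 64.2% after 3 weeks. *Fcrls* was in 97.1% and 96.8% of adult cells, 85.8% and 80.6% in vitro, 57.0% and 65.7% after 1 day, 65.2% and 66.1% after 1 week, and 86.7% and 61.8% after 3 weeks. For both genes the adult shares were the highest.

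*Fcgr4* was detected in 3.15% (95% exact Clopper-Pearson interval 2.60% to 3.78%) and 3.18% (2.55% to 3.92%) of adult cells, 10.0% and 12.1% in vitro, 16.3% and 11.7% after 1 day, 7.09% and 5.36% after 1 week, and 7.46% and 7.01% after 3 weeks. Intervals cover counting error only. Both in vitro, both 1 day and both 3 week intervals lay above the adult ones, while those at 1 week (3.45% to 12.7% and 1.12% to 14.9%) overlapped them. Without thinning the shares were 6.50% and 3.74% in the adult group and 52.5% and 58.8% in vitro, at median depths of 3257 and 1858 against 12858 and 13966 UMIs per cell. No cell type that lacks *Fcgr4* was available as a measure of free RNA in the adult libraries. *Fcgr1* was in 51.3% and 44.1% of thinned adult cells and in 19.2% to 33.9% of cells in the cultured libraries. *Fcgr2b* was in 35.9% and 34.2% of adult cells and 15.6% and 9.66% after 1 day, and *Fcgrt* in 21.0% and 21.5% of adult cells, 36.5% and 37.3% in vitro and 14.8% and 15.3% after 1 day.

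**Figure D4:**
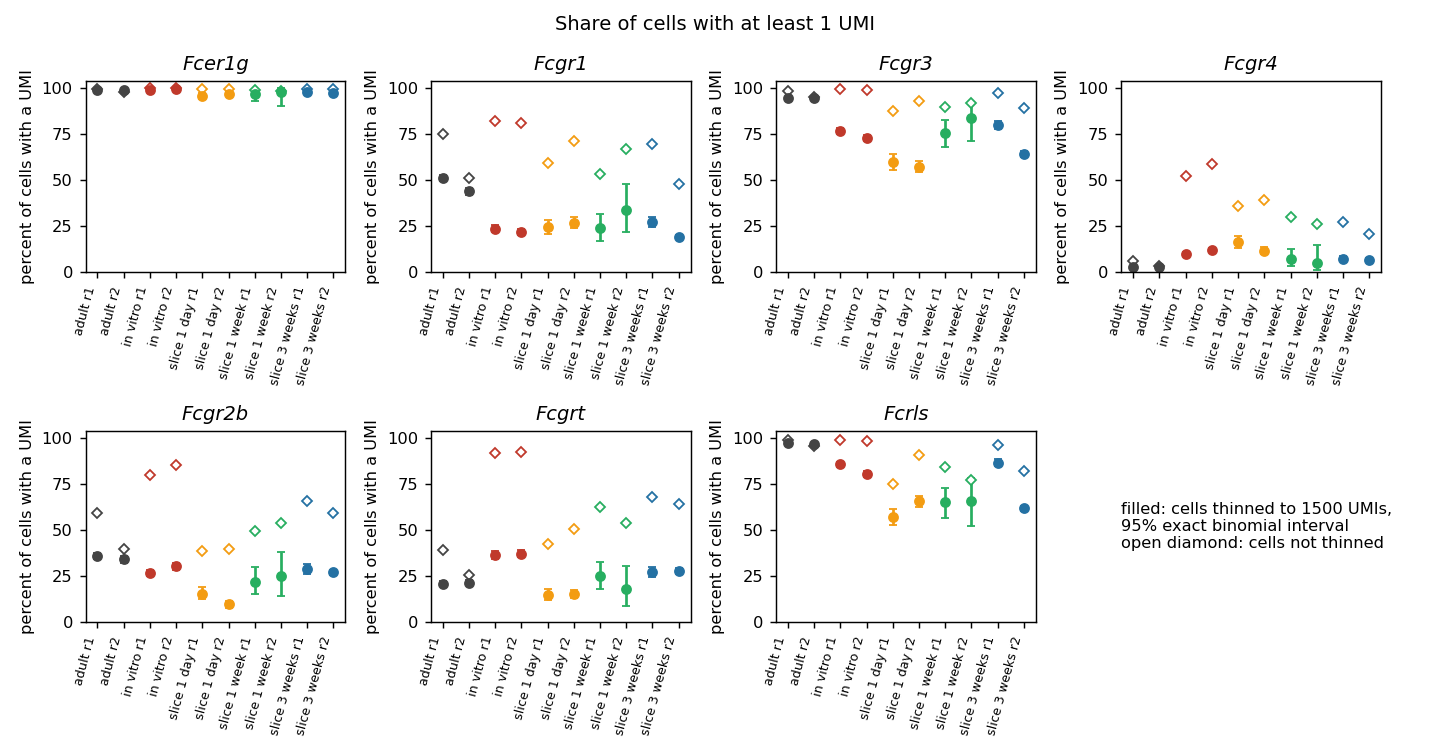
Share of cells with at least 1 UMI of each Fc receptor gene after thinning every cell to 1500 UMIs, in percent, with a filled point for each of the 10 libraries, 95% exact binomial intervals, and open diamonds for cells not thinned. Fcer1g is near the top in every library, whereas the filled points of Fcgr4 reach at most 16.3% and are lowest in the adult libraries.

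The neutrophil-rich cells of the 3 libraries that had more than 1 of them differed from the other cells in their Fc receptor RNA. In these cells *Fcgr1* was at 29.1, 47.0 and 33.9 CPM (1 day replicates 1 and 2 and 1 week replicate 1), against 277, 254 and 230 in the other cells of the same libraries. *Fcrls* was at 87.4, 174 and 142 CPM against 1156, 1236 and 1503, and *Fcgrt* at 5.83, 40.3 and 54.2 CPM against 127, 114 and 249. Each of these 3 genes was lower in the neutrophil-rich cells of all 3 libraries. *Fcgr2b* was lower too, at 23.3, 38.9 and 33.9 CPM against 140, 85.2 and 197. *Fcgr4* was higher in both 1 day libraries, at 285 and 126 CPM against 120 and 78.1, and close to the other cells at 1 week, at 54.2 against 61.1. *Fcer1g* and *Fcgr3* had no common direction, with *Fcer1g* at 5098, 2839 and 2858 CPM against 3303, 2993 and 3481.

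These cells were shallower, with medians of 2224, 4925 and 4490.5 UMIs against 6986, 8868 and 7292, so shares were compared after thinning. *Fcgr1* was then found in 3.08%, 3.64% and 4.17% of neutrophil-rich cells against 27.6%, 30.0% and 28.2% of the others, and *Fcrls* in 13.8%, 26.4% and 16.7% against 63.3%, 70.5% and 75.2%. *Fcgr4* was in 35.4% and 21.8% of neutrophil-rich cells at 1 day against 13.6% and 10.5% of the others. In replicate 1 at 1 week it was in 12.5% (95% interval 2.66% to 32.4%) of 24 neutrophil-rich cells and 5.98% (2.44% to 11.9%) of the others, with intervals that overlap, and without thinning in 25% against 31.5%. *Fcgrt* was in 0 of 65 neutrophil-rich cells of 1 day replicate 1, and 3 counts of 65 put the upper limit for cells with a UMI at 4.62%, for counting error only. Before thinning, the 68 neutrophil-rich cells of that library held 1 UMI of *Fcgrt*. Free RNA and doublets can put UMIs in cells that do not express a gene, and doublets were not removed. When neutrophil-rich cells were left out, the 1 day differences from adult were 2.28 for *Fcgr4*, -0.64 for *Fcgr1*, -1.30 for *Fcgr2b*, -1.51 for *Fcgr3* and -1.25 for *Fcrls* on the log2 scale, and no member gained or lost a call in any of the 8 comparisons. That limit was set after seeing the data. The wider rule planned earlier dropped every cell with 3 or more neutrophil, lymphocyte or monocyte genes, which was 44.2% and 88.5% of cells at 1 day and 85.8% and 4.92% at 1 week. It left 5, 5, 3 and 4 members called against the adult group (in vitro, 1 day, 1 week and 3 weeks), 1 for in vitro against 3 weeks, 4 from 1 day to 3 weeks and 0 from 1 day to 1 week, where *Fcgr2b* (1.08, adjusted p = 0.104), *Fcgr3* (0.91, adjusted p = 0.110) and *Fcgrt* lost their calls. Calls over all genes were also fewer, at 1794 at 1 week against adult, 1964 from 1 day to 3 weeks and 241 from 1 day to 1 week, of 11792 tested. With all cells these were 3473, 3254 and 1237 of 12155. In vitro, 1 day and 3 weeks against adult gave 6153, 5036 and 4319, against 6183, 6110 and 4310 with all cells. For in vitro against 3 weeks 3869 genes were called, against 4051.

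**Figure D5:**
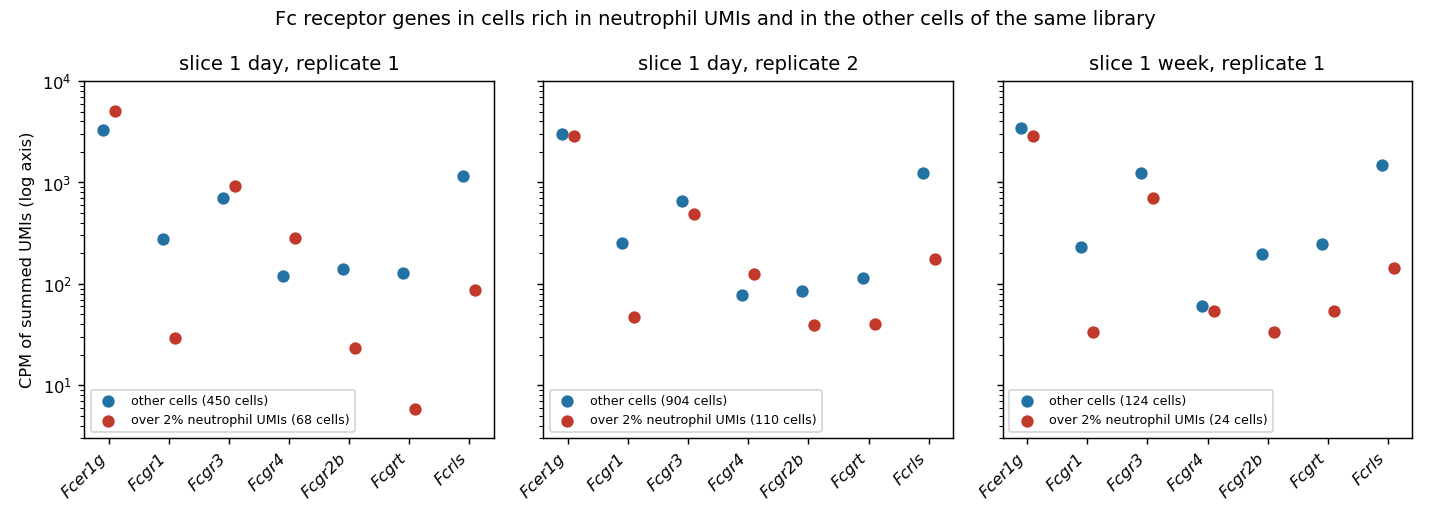
Level of each Fc receptor gene in CPM, on a log axis, in neutrophil-rich cells and in the other cells of the 3 libraries that held more than 1 such cell. Fcgr1, Fcgr2b, Fcrls and Fcgrt are lower in neutrophil-rich cells in all 3, and Fcgr4 is higher in the 2 libraries at 1 day.

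Genes around the receptors were taken from fixed lists. Of 25 ITAM kinases and adaptors tested, 4 rose and 11 fell in vitro (median log2 change -0.64), 4 rose and 6 fell at 1 day (-0.33), 3 rose and 3 fell at 1 week (-0.37), and 6 rose and 9 fell at 3 weeks (-0.36), where the medians of all genes were -0.11, -0.06, -0.08 and -0.03. The shares of all genes called in these 4 comparisons, 50.9%, 50.3%, 28.6% and 35.5%, are the background for this list and for those that follow, and no list was tested against them. *Blnk*, an adaptor of Syk, fell from 222 and 223 CPM in the adult libraries to 127 and 142 in vitro, 65.3 and 56.2 after 1 day, 72.1 and 81.9 after 1 week and 103 and 89.7 after 3 weeks. The Src family kinase gene *Fgr* moved in opposite directions, falling from 4.10 and 2.70 CPM in the adult group to 0.0642 and 0.0561 in vitro and rising to 35.9 and 28.7 after 1 day. *Vav3* was at 0 UMIs in both adult libraries and at least 192-fold higher in vitro and at least 71.7-fold higher at 1 day, against a floor of 3 counts over the group. *Lat*, a scaffold for phospholipase C, stayed under 5 CPM in all libraries.

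Of 24 genes of phosphoinositide 3-kinase and the phagocytic cup, 6 rose and 7 fell in vitro, 4 rose and 11 fell at 1 day, 3 rose and 8 fell at 1 week, and 4 rose and 8 fell at 3 weeks, beside the same 50.9%, 50.3%, 28.6% and 35.5% of all genes. *Arpc3*, a subunit of the actin-branching Arp2/3 complex, rose in all 4 groups, from 314 and 299 CPM in the adult libraries to 1031 and 1118 in vitro. *Pik3r1*, the p85α regulatory subunit, and *Elmo1*, which acts with DOCK proteins to activate Rac, fell in all 4, with *Elmo1* going from 200 and 219 CPM to 36.2 and 38.8 after 1 day. *Dock8*, an exchange factor for Cdc42, fell in all 4 as well, from 80.1 and 55.8 CPM to 19.4 and 20.3 after 1 day. Of 23 ITIM effectors and brakes, 7 rose and 9 fell in vitro, 5 rose and 10 fell at 1 day, 5 rose and 8 fell at 1 week, and 2 rose and 11 fell at 3 weeks, against that same background. Among them the inhibitory receptor genes *Lair1* and *Lilrb4a* went opposite ways. *Lair1* fell from 723 and 724 CPM to 86.3 and 91.3 in vitro, while *Lilrb4a* rose from 3.15 and 6.83 CPM to 726 and 668 after 1 day. The adaptor genes *Dok2* and *Pag1* also parted, *Dok2* rising from 0.366 and 0.386 CPM to 98.8 and 98.2 after 1 day and *Pag1* falling from 119 and 100 CPM to 8.80 and 8.48 in vitro.

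Of 7 tested genes on the list of receptors taken as γ chain partners, 5 rose and 0 fell in vitro, 5 rose and 1 fell at 1 day, 4 rose and 1 fell at 1 week, and 3 rose and 3 fell at 3 weeks, where 22.4%, 24.9%, 15% and 18% of all genes were higher and 28.5%, 25.4%, 13.6% and 17.5% lower. Pairing with the γ chain is not established for each gene of this list, such as *Clec4a1*. *Clec4d* was at 0 UMIs in both adult libraries, and it was at least 1250-fold higher in vitro and at least 448-fold higher at 1 day. *Clec4e*, encoding the receptor Mincle, was also at 0 in both adult libraries and at least 140-fold higher at 1 day and at least 172-fold higher at 1 week. *Clec4n*, encoding Dectin-2, had 1 UMI in the adult libraries and measured 233 and 168 CPM in vitro. *Clec4a1* rose from 5.57 and 4.64 CPM to 64.0 and 48.3 in vitro and fell to 2.33 and 0.978 after 3 weeks. From 1 day to 3 weeks all 7 fell, beside 12.8% of all genes. The border macrophage list in vitro and the neutrophil list at 1 day and 1 week were also raised, as given above, and their part in these values and in those of the other lists was not tested.

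Of 10 FcRn partner and endosomal sorting genes, 3 rose in vitro, 2 at 1 day, 0 at 1 week and 1 at 3 weeks, and 0 fell in any of these comparisons, beside 22.4%, 24.9%, 15% and 18% of all genes higher. *B2m*, the light chain partner of FcRn, was at 3949 and 2742 CPM in the adult group, 4244 and 3855 in vitro and 4733 and 4792 after 3 weeks, and did not pass against the adult group at any time (0.28 ± 0.20 in vitro, adjusted p = 0.25, and 0.51 ± 0.20 at 3 weeks, adjusted p = 0.061). It was higher at 3 weeks than at 1 week (0.97 ± 0.20, adjusted p = 0.021). *Eea1*, an early endosome tether, rose in vitro (2.21 ± 0.31, adjusted p = 0.00016), at 1 day and at 3 weeks. Of 6 tested interferon-γ inducible controls, 0 rose against the adult group, and 3 fell in vitro, 5 at 1 day, 2 at 1 week and 4 at 3 weeks, beside 28.5%, 25.4%, 13.6% and 17.5% of all genes lower. *Irf8*, a myeloid transcription factor, fell in vitro (-1.34 ± 0.15, adjusted p = 3.4e-05), at 1 day and at 1 week. *Socs1*, a brake on cytokine receptors, was at 8.28 and 8.24 CPM in the adult libraries and between 0 and 4.94 in the cultured ones. Of 12 listed other Fc receptors and immunoglobulin binders, 9 were listed in the tables and 2 were tested. *Fcrl1*, another Fc receptor-like gene, fell in all 4 groups, from 70.0 and 66.2 CPM to 25.3 and 25.1 in vitro, 9.17 and 6.08 after 1 day, 13.8 and 5.12 after 1 week and 6.73 and 4.80 after 3 weeks.

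Likeness to the members was searched only in the 3917 tested genes whose mean log2 CPM reached 5. It was measured by Pearson correlation of log2(CPM + 1), as a description of points that share their groups and depth. Among these 3917, the genes whose level over the 10 libraries was most like each member were named. They were *Pld4* (0.983), *Lyl1* (0.977) and *Slc46a3* (0.969) for *Fcgr3*, and *Neat1* (0.987), *Cd44* (0.980) and *Tuba1c* (0.973) for *Fcgr4*. For *Fcgr2b* they were *Pnpla7* (0.979), *Hexa* (0.954) and *Psap* (0.954), and for *Fcgrt* *Gltp* (0.985), *Myo1f* (0.968) and *Fam174a* (0.963). For *Fcer1g* they were *Fam234a* (0.958), *P2rx4* (0.956) and *Pla2g16* (0.952), for *Fcgr1* *0610010K14Rik* (0.948), *Siglece* (0.946) and *Rinl* (0.946), and for *Fcrls* *Tango2* (0.954), *Ppil2* (0.952) and *Srd5a3* (0.950). Between members the highest correlation was that of *Fcer1g* and *Fcgrt* (0.888) and the lowest that of *Fcgr3* and *Fcgr4* (-0.809).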

How the data were processed

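RNA of sorted cells was measured with the 10x Genomics 3′ v2 chemistry in 10 libraries. The authors deposited 1 table per library of UMI counts, genes by cell barcodes and not normalized, made with Cell Ranger 1.3.0 against mm10 according to the submitters' processing notes, and whether intergenic or multi-mapped reads were kept is not given in the sources used here. After the thresholds in the study's methods, a barcode was dropped where mitochondrial genes gave more than 5% of its UMIs, where it had fewer than 400 genes, or where it passed 30000 UMIs (578 of 19637 barcodes). The study's removal of outlier cells by t-SNE was not repeated. More cells were kept at 1 week (148 and 61) than the study counted as microglia, most of all in replicate 1. No doublet caller was run, and any 2 libraries shared at most 23 barcodes.

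The cells of a library were added up gene by gene, since cells are not replicates. All 10 libraries entered 1 edgeR 4.0.16 quasi-likelihood fit of 5 groups (R 4.3.3, TMM scaling, filterByExpr with a minimum count of 10), in which 12155 genes were tested in 8 comparisons. Adjusted p is Benjamini-Hochberg over all genes tested, and a gene was called at an adjusted p under 0.05 and a fold over 1.5. The biological coefficient of variation was 18.2%. The script was tested on simulated data. Shares of cells carry 95% exact Clopper-Pearson intervals, and the floor for a count of 0 is 3 counts.

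Gene positions came from GENCODE gene models on GRCm38, and promoters from RefSeq GRCm38.p6, where each of the 7 members was found. Named genes were the 7 members, the 3 genes most correlated with each, and up to 4 genes of each list that were called in the most comparisons. The correlated genes were taken from the 3917 tested genes whose mean log2 CPM reached 5. The members and lists were chosen with earlier results of these data known. The alternatives were DESeq2 1.42.0, library size alone, UMIs per cell, no gene filter, all barcodes, thinned cells, cells with other lineage genes left out, fits of only the 2 groups compared, a replicate block, study label, and each library left out. Leaving out neutrophil-rich cells and crossing the replicate block were added after seeing the data.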

Additional observations from a re-analysis of the deposited data

Results flagged for a closer look

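Of the comparisons between slice times, 7 differences were noted because the effect at one slice time, taken against the same 2 adult libraries, differed from the effect at another by a test of the difference itself in edgeR's quasi-likelihood fit. The inhibitory receptor *Fcgr2b* was higher by 1.23 ± 0.23 (log2, SE, adjusted p = 0.00307) at 3 weeks than at 1 day and by 1.07 ± 0.24 (adjusted p = 0.0187) at 1 week than at 1 day. *Fcgr3* was higher by 0.71 ± 0.17 (adjusted p = 0.0110) and by 1.01 ± 0.17 (adjusted p = 0.00635) in the same comparisons, and *Fcgrt* by 1.05 ± 0.13 (adjusted p = 0.000426) and by 1.10 ± 0.13 (adjusted p = 0.00256). *Fcgr4* went the other way and changed by -0.89 ± 0.20 (adjusted p = 0.00831) from 1 day to 3 weeks. Both libraries of the later time were above both libraries of 1 day for the first 3 genes and below them for *Fcgr4*. The 7 differences were kept because they passed on these same libraries, so this separation is no further support. The share of all genes that separate in this way was not counted. The neutrophil-rich cells of both 1 day libraries and of 1 week replicate 1 were part of these values, and each of the 7 calls held when those cells were left out by a limit set after seeing the data. Under the wider planned rule on cells with 3 or more neutrophil, lymphocyte or monocyte genes, the 4 calls from 1 day to 3 weeks held and the 3 from 1 day to 1 week were lost, with differences of 1.08 (adjusted p = 0.104) for *Fcgr2b*, 0.91 (adjusted p = 0.110) for *Fcgr3* and 1.03 (adjusted p = 0.119) for *Fcgrt*. With thinned cells those 3 were lost as well, at 0.72 (adjusted p = 0.275) for *Fcgr2b*, 0.95 (adjusted p = 0.0512) for *Fcgr3* and 0.60 (adjusted p = 0.249) for *Fcgrt*, and so was *Fcgr3* from 1 day to 3 weeks (0.63, adjusted p = 0.0531). Calls over all genes from 1 day to 1 week also went from 1237 to 241 under the wider rule and to 169 with thinned cells. On unscaled UMIs per cell only the fall of *Fcgr4* kept its call. There 1 member was called from 1 day to 3 weeks and 0 from 1 day to 1 week. Groups of 2 libraries allowed no search for a single library that stood apart within its group.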

How the results depend on the processing

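Of 56 differences of members, 29 were called. Of these, 12 kept the call under all 21 alternatives that scale for depth, and 0 reversed under one. DESeq2 changed no member call. The causes of the changes below were not tested. Depth limits the 1 week slices most, with 385373 UMIs in replicate 2, and *Fcgr4*, with 21 UMIs there.

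With UMIs per cell in place of depth scaling, differences from adult reversed to 1.04 (*Fcgr1*), 1.44 (*Fcgr3*) and 1.45 (*Fcrls*) in vitro. They became 0.80 (*Fcgr1*), 0.14 (*Fcgr2b*), 0.038 (*Fcgr3*), 0.22 (*Fcrls*) and 1.19 (*Fcgrt*) at 1 day, 0.37 (*Fcgr1*), 0.90 (*Fcgr2b*), 0.70 (*Fcgr3*) and 0.16 (*Fcrls*) at 1 week, and 0.027 (*Fcgr1*), 0.96 (*Fcgr2b*), 0.33 (*Fcgr3*) and 0.32 (*Fcrls*) at 3 weeks. *Fcgr1* in vitro against 3 weeks became 1.02, *Fcer1g* became -0.19 (3 weeks against 1 day), -0.15 (1 week against 1 day) and -0.039 (3 weeks against 1 week), and *Fcrls* -0.061 (1 week against 1 day). Members called became 7 (in vitro against 3 weeks), 1 (3 weeks against 1 day) and 0 (1 week against 1 day). Over all genes the calls were 94.4% higher in vitro, 95.04% at 1 day, 96.8% at 1 week and 95.1% at 3 weeks, against 44.0%, 49.5%, 52.5% and 50.6% with TMM. In the other comparisons 90.3%, 13.8%, 21.2% and 14.5% were higher, against 39.9%, 52.1%, 48.3% and 39.02%.

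Differences that reversed under another setting had not been called. With library size alone *Fcgr2b* in vitro was -0.24, *Fcer1g* at 1 day -0.10, and *Fcgr3* and *Fcrls* in vitro against 3 weeks -0.054 and -0.013. Members called in vitro against 3 weeks were then 0, *Fcer1g* in vitro (0.36) lost its call, *Fcgr3* at 1 week (-0.69) gained one, and the share of higher calls was 29.9% in vitro, 37.7% at 1 week, 35.8% at 3 weeks and 36.4% for 1 week against 1 day. Leaving out cells with 3 or more neutrophil, lymphocyte or monocyte genes gave -0.033 (*Fcgr2b* in vitro), -0.19 (*Fcer1g* at 1 day), and 0.00058 (*Fcgr1*) and 0.17 (*Fcgrt*) for 3 weeks against 1 week, with 1 member called in vitro against 3 weeks and 0 for 1 week against 1 day. Thinned cells gave 0.10 (*Fcgr1*, in vitro against 3 weeks), -0.029 (*Fcer1g*) and 0.040 (*Fcgr1*) for 1 week against 1 day, and 0.30 (*Fcgrt*, 3 weeks against 1 week), with 2 members called at 1 week and 0 for 1 week against 1 day. With no gene filter *Fcgr1* in vitro against 3 weeks was 0.070 and *Fcgrt* for 3 weeks against 1 week 0.068, *Fcgr3* (-0.57) and *Fcrls* (-0.54) lost their calls in vitro, and *Fcgr4* for 1 week against 1 day (-0.84) gained one. With only the 2 groups compared, *Fcgr1* in vitro against 3 weeks was 0.011 and 3 members were called at 3 weeks. With study label these were 0.24 for *Fcgr1*, and -0.040 (*Fcer1g*) and -0.13 (*Fcrls*) for 3 weeks against 1 week. Without cells over 2% neutrophil UMIs *Fcer1g* at 1 day was -0.0074. With *Fcgr3* alone as the activating receptor the log2 ratio was -2.82 (adult), -2.02 (in vitro), -2.69 (1 day), -2.60 (1 week) and -2.13 (3 weeks).

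With each library left out in turn, members called ranged from 2 to 4 (1 week against adult), 3 to 5 (3 weeks against adult), 1 to 3 (in vitro against 3 weeks), 1 to 3 (1 week against 1 day) and 0 to 1 (3 weeks against 1 week). Uncalled differences that crossed 0 ranged from -0.025 to 0.29 (*Fcgr2b* in vitro), -0.079 to 0.17 (*Fcer1g* at 1 day), -0.21 to 0.027 (*Fcgr2b* at 3 weeks), -0.051 to 0.93 (*Fcrls*, 3 weeks against 1 day), and for in vitro against 3 weeks -0.25 to 0.31 (*Fcgr1*), -0.093 to 0.29 (*Fcgr3*) and -0.24 to 0.66 (*Fcrls*). For 3 weeks against 1 week they ranged from -0.011 to 0.17 (*Fcer1g*), -0.61 to 0.066 (*Fcgr1*), -0.055 to 0.46 (*Fcgr2b*), -0.28 to 0.046 (*Fcgr4*), -0.34 to 0.68 (*Fcrls*) and -0.045 to 0.039 (*Fcgrt*).

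Counts of all genes called moved by over 1.5 times as follows. UMIs per cell gave 10361 (in vitro), 5516 (1 week), 7130 (3 weeks), 7067 (in vitro against 3 weeks) and 758 (1 week against 1 day), where TMM gave 6183, 3473, 4310, 4051 and 1237. No gene filter gave 1977 for 1 week against 1 day and 1728 for 3 weeks against 1 week, where the filtered count was 697. Leaving out lineage cells gave 1794 (1 week), 1964 (3 weeks against 1 day, 3254 with all cells), 241 and 111, and thinning gave 1611, 2112, 169 and 300 in the same order. Only the 2 groups gave 275 for 3 weeks against 1 week. Leave-one-out counts were as low as 2468 (in vitro against 3 weeks), 1445 (1 week), 1442 (3 weeks against 1 day), 218 (1 week against 1 day) and 46 (3 weeks against 1 week), and reached 1246 in the last.

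The labels do not say whether same-numbered libraries are paired. Same-numbered deviations correlated from -0.112 to 0.094, which cannot settle it, since each is taken from a mean of 2 libraries. With a replicate block the members called stayed at 6, 5, 4 and 5 against adult, and 2 (in vitro against 3 weeks), 4, 3 and 0 in the others. With the numbers of the 3 week slices crossed, the counts of members were the same and 3110 genes were called for 3 weeks against 1 day, against 3101 uncrossed.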
